A study of Mus musculus with 8 samples.

Results

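The 41 enzymes examined here carry out glycolysis, the pentose phosphate pathway and the entry of pyruvate into the tricarboxylic acid (TCA) cycle. They are a fixed list of named genes, chosen by pathway and not by level, and all 41 were found among the 13341 gene symbols of the deposited table. The list holds 17 glycolytic genes with the lactate dehydrogenases, 7 genes of the pentose phosphate pathway, and 17 genes of the pyruvate dehydrogenase complex and the TCA cycle. RNA came from T cells with high CD44, a surface protein of antigen-experienced cells, sorted from the kidney and the spleen of MRL/lpr mice aged 14 weeks. MRL/lpr mice carry the lpr mutation of Fas, a death receptor, and develop lupus-like kidney inflammation. All 4 groups (kidney CD4+, kidney CD8+, spleen CD4+ and spleen CD8+) carry that genotype, and no other strain or age was among the samples analysed here. Each group had 2 libraries (n = 2). The labels do not say whether the 2 came from separate mice or from pooled cells, so p-values measure only the spread between these libraries, which may be technical.

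Glycolysis splits glucose in the cytosol into pyruvate, which lactate dehydrogenase turns into lactate or the pyruvate dehydrogenase complex turns into acetyl-CoA for the mitochondrial TCA cycle. The pentose phosphate pathway branches off after the first glycolytic step and makes NADPH and ribose phosphate. Activated effector T cells are known for a high glycolytic rate with lactate release, and memory T cells for a greater reliance on mitochondrial oxidation. Several steps are served by isozymes encoded by separate genes, among them hexokinase, phosphofructokinase, aldolase, enolase and lactate dehydrogenase.

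Depth was 7477544 to 11169003 reads per library. A level is the deposited normalised value, of which 1 read was worth 0.554 to 1.04. T cell genes were present throughout, with a summed level of the 12 T cell genes of 104439.9 to 153237 in kidney and 102318 to 117243 in spleen libraries. Cd4 and Cd8a followed the sorted cell type, Cd4 at 1365 or more in CD4+ and 17.8 or less in CD8+ libraries. The kidney libraries also held RNA of proximal tubule cells. The 23 tubule markers summed to 13166 and 34028 in kidney CD4+ and 10121 and 36339.9 in kidney CD8+ cells, against 4.71 to 18.8 in spleen, where 16 of the 23 had 0 reads. The spleen libraries held neutrophil and red cell RNA, with 13 neutrophil markers at 3780.3 to 9789 against 0 to 31.0 in kidney, and 13 erythroid markers at 13654 to 25922 against 658 to 1843. Macrophage and monocyte markers (11 genes) summed to 7265 to 7358 in kidney CD4+, 1945 to 2524 in kidney CD8+ and 849.8 to 2292 in spleen libraries. The 2 kidney CD4+ libraries were unlike each other: over 4691 genes with a mean level of at least 100, the log2 difference between replicates had an SD of 1.56, against 0.650 for the kidney CD8+ pair, 0.452 for the spleen CD4+ pair and 0.435 for the spleen CD8+ pair. Over the 35 enzymes at that level it was 1.35, 0.535, 0.251 and 0.235 in the same order.

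All 41 enzymes were expressed above the filter for testing (a level of 10 or more, reached in 2 or more libraries), though over a wide range. Per kilobase of transcript, so that genes can be compared, the mean level over the 8 libraries ran from 5.58 for Hk2 to 9203 for Gapdh, the enzyme of the first energy-yielding step of glycolysis. Aldoa (aldolase A, 7059.7 per kb) and Ldha (lactate dehydrogenase A, 5841 per kb) came next. They were followed by the malate dehydrogenases Mdh2 of the mitochondrion (5260.1 per kb) and Mdh1 of the cytosol (3299 per kb). The lowest after Hk2 were Pfkm, the muscle phosphofructokinase (6.86 per kb), and Dlat, the acetyltransferase of the pyruvate dehydrogenase complex (10.1 per kb). Among the pentose phosphate genes Taldo1 (transaldolase) stood at 2809 per kb, while G6pdx, the NADPH-making entry enzyme, was at 104.

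Summed per kilobase over each pathway, the organs overlapped for glycolysis. The 17 glycolytic genes summed to 43536 and 30247 in kidney CD4+, 27529 and 34532 in kidney CD8+, 33520.5 and 34102 in spleen CD4+ and 27642 and 30868 in spleen CD8+ cells. The 7 pentose phosphate genes summed to 3369.8 and 3229.8, 3691 and 3283, 2675 and 3186 and 2689 and 3078 in the same order. These sums were lowest in the spleen groups, and the lowest kidney library lay just above the highest spleen library (3229.8 against 3186). Taldo1 made up most of each sum. Gene by gene, 3 of the 7 had a positive and 4 a negative log2 fold change averaged over the cell types. Their median was -0.45, against -0.06 over all genes, so the sums do not describe the pathway as a whole. The 17 genes of the pyruvate dehydrogenase complex and TCA cycle summed to 16653 and 14059.5, 14031 and 16347, 12757 and 13798 and 13886 and 15786, with overlap between the organs. In such sums a few abundant genes dominate, so each gene is described below.

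**Figure D1:**
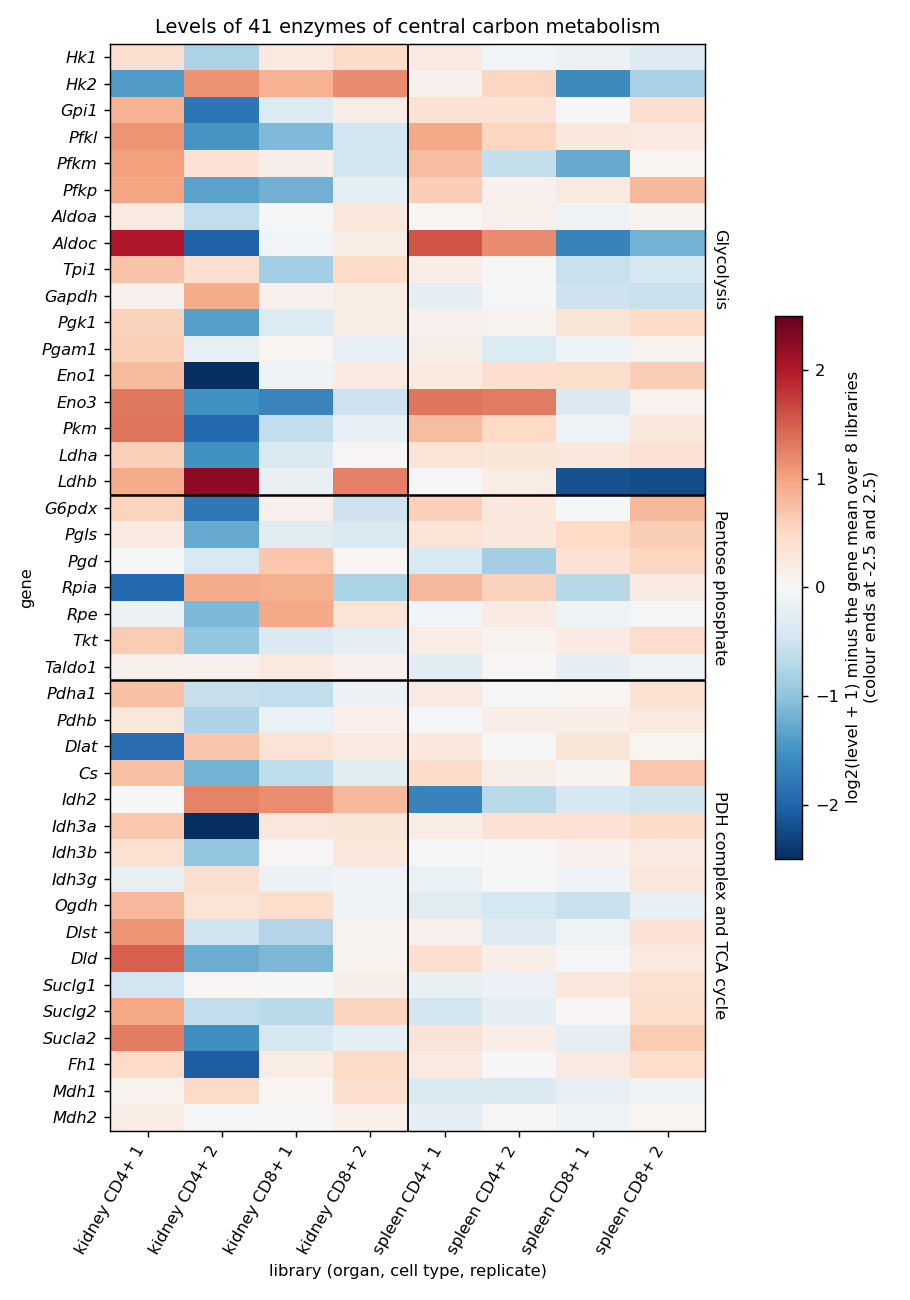
Level of each of the 41 enzymes (rows, by pathway) in each library (columns), as log2(level + 1) minus the mean of that gene over the 8 libraries; red is above and blue below the mean. Kidney CD4+ replicate 2 was the lowest of 8 for 20 of 35 well expressed enzymes and replicate 1 the highest for 22, while Ldhb runs from blue in spleen CD8+ to red in kidney CD4+ replicate 2.

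Lactate dehydrogenase held the only enzyme gene to pass the test between the organs. It is a tetramer of A and B subunits: the A subunit, encoded by Ldha (chromosome 7, 54096845 to 54110997, plus strand, mm9), favours the making of lactate, and the B subunit, encoded by Ldhb (chromosome 6, 142438769 to 142456477, minus strand), which is abundant in heart and in kidney tissue, favours its use. Their promoters are shown because the proportions of these 2 subunit genes differed between the libraries of the organs. The sequences are the 250 bases before the transcript start, 5′ to 3′ on the strand of the gene, from RefSeq (GRCm38.p6, a later build than that of the levels). Capitals mark ACGTG or GCGTG on either strand, the core letters bound by hypoxia-inducible factors. Ldha at chr7:46845554-46845803 on the plus strand is the first of 2 starts listed, and Ldhb lies at chr6:142507958-142508207 on the minus strand.
Ldha: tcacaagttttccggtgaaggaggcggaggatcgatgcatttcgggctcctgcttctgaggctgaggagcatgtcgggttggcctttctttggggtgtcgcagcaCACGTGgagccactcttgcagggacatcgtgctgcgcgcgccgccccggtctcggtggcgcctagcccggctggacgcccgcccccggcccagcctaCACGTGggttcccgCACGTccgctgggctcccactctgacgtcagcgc
Ldhb: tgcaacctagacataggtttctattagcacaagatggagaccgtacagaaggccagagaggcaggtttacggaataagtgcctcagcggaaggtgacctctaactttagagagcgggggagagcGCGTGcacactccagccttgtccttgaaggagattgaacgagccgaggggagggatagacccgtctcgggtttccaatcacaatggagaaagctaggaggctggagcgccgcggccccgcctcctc
The Ldha window shown held 3 separate matches, 2 of them within CACGTG, and the Ldhb window held 1. The window of the other Ldha start, not shown, held 1 match and 0 of CACGTG. Of all 32851 promoter windows of this length 38.6% held at least 1 such match and 6.02% held CACGTG. Of the 57 windows listed for 40 of the 41 enzymes (all but Idh3a), 73.7% held a match and 8.77% held CACGTG. A match describes these letters only.

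Ldhb had levels of 2235 and 5516 in kidney CD4+, 1037 and 2814 in kidney CD8+, 1143 and 1339 in spleen CD4+ and 257 and 250.2 in spleen CD8+ cells. It was higher in kidney within each cell type, without overlap, and within each organ higher in CD4+ than in CD8+ cells in spleen without overlap but with overlap in kidney. Averaged over the cell types Ldhb rose 4.36-fold in kidney (log2 fold change 2.13 ± 0.40 SE, adjusted p = 0.0239), the only one of the 41 enzymes that passed in limma in this comparison. Over all genes 3.37% passed there. edgeR called the same 1 enzyme (3.1% of all genes passed), and DESeq2 called 2 (7.28%), Ldhb and Idh2. The difference was 2.75 ± 0.56 in CD8+ cells (adjusted p = 0.0608) and 1.50 ± 0.56 in CD4+ cells (adjusted p = 0.411), values that did not pass alone. The difference between these organ effects was 1.24 ± 0.80 SE, adjusted p = 0.999. The standard error (SE) is pooled over the 4 groups and so includes the unlike kidney CD4+ pair. Without those 2 libraries the CD8+ difference passed (adjusted p = 0.00362), as it did without either one of them (0.00335 and 0.00416 without replicate 1 and 2). The averaged call was lost without kidney CD8+ replicate 2 (adjusted p = 0.0819), without spleen CD4+ replicate 1 or 2 (0.135 and 0.122) without spleen CD8+ replicate 1 or 2 (0.127 and 0.126), and without the intensity trend (0.0729), with a log2 fold change of 1.77 to 2.49 over all alternatives. Without kidney CD4+ replicate 1, 23 enzymes passed in the averaged comparison (26.1% of all genes), 5 higher in kidney (Gapdh, Ldhb, Idh2, Ogdh and Mdh1) and 18 lower (Gpi1, Pfkl, Pfkp, Pgk1, Eno1, Eno3, Pkm, Ldha, G6pdx, Tkt, Pdha1, Pdhb, Dld, Cs, Idh3a, Idh3b, Sucla2 and Fh1). In the fit without replicate 2, 3 passed (8.22%): Gapdh, Ldhb and Ogdh.

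Within each kidney pair the library with more tubule RNA had more Ldhb. Between the cell types the summed tubule markers and Ldhb differed in order. The sum was highest in kidney CD8+ replicate 2 (36339.9, against 34028 in kidney CD4+ replicate 2), while Ldhb was highest in kidney CD4+ replicate 2. Miox, a proximal tubule gene with 0 reads in spleen, was at 1281 and 5964 in kidney CD4+ and 1252 and 3247 in kidney CD8+ libraries, and in both groups the library with more Miox had more Ldhb. The part of tubule RNA in the Ldhb difference was not tested. In spleen, where Miox had 0 reads, Ldhb was at 1143 and 1339 in CD4+ cells and lower in CD8+ cells, as given above. Ldhb has 1 near copy elsewhere in the genome (at least 95% identity over at least 50% of the transcript), which the counting could confuse with it. In these bulk samples more RNA per cell and more cells of a type that expresses a gene cannot be told apart.

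Ldha was at 14375 and 3344 in kidney CD4+, 7439.8 and 9812 in kidney CD8+, 12006 and 11732 in spleen CD4+ and 11465 and 12348 in spleen CD8+ cells. Both kidney CD8+ libraries lay below the spleen CD8+ ones, with a log2 fold change of -0.48 ± 0.62 SE, adjusted p = 0.862. Kidney CD4+ cells had 1 library above and 1 below the spleen range, and the CD4+ value of -0.78 (adjusted p = 0.784) became 0.28 without kidney CD4+ replicate 2 and -1.83 without replicate 1 (adjusted p = 3.57e-04). Per kilobase, Ldhb made up 17.4% and 69.1% of the lactate dehydrogenase level in kidney CD4+ and 15.9% and 28.0% in kidney CD8+ cells, against 11.4% and 13.4% in spleen CD4+ and 2.95% and 2.67% in spleen CD8+ cells. This share was higher in every kidney library than in every spleen library. Kidney CD4+ replicate 2 stood far above the rest. In that library Ldhb (1304 nt) was higher and Ldha (1766 nt) lower than in replicate 1. The difference between these 2 libraries varied with transcript length, as given below, and the part of length in this share was not tested.

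**Figure D2:**
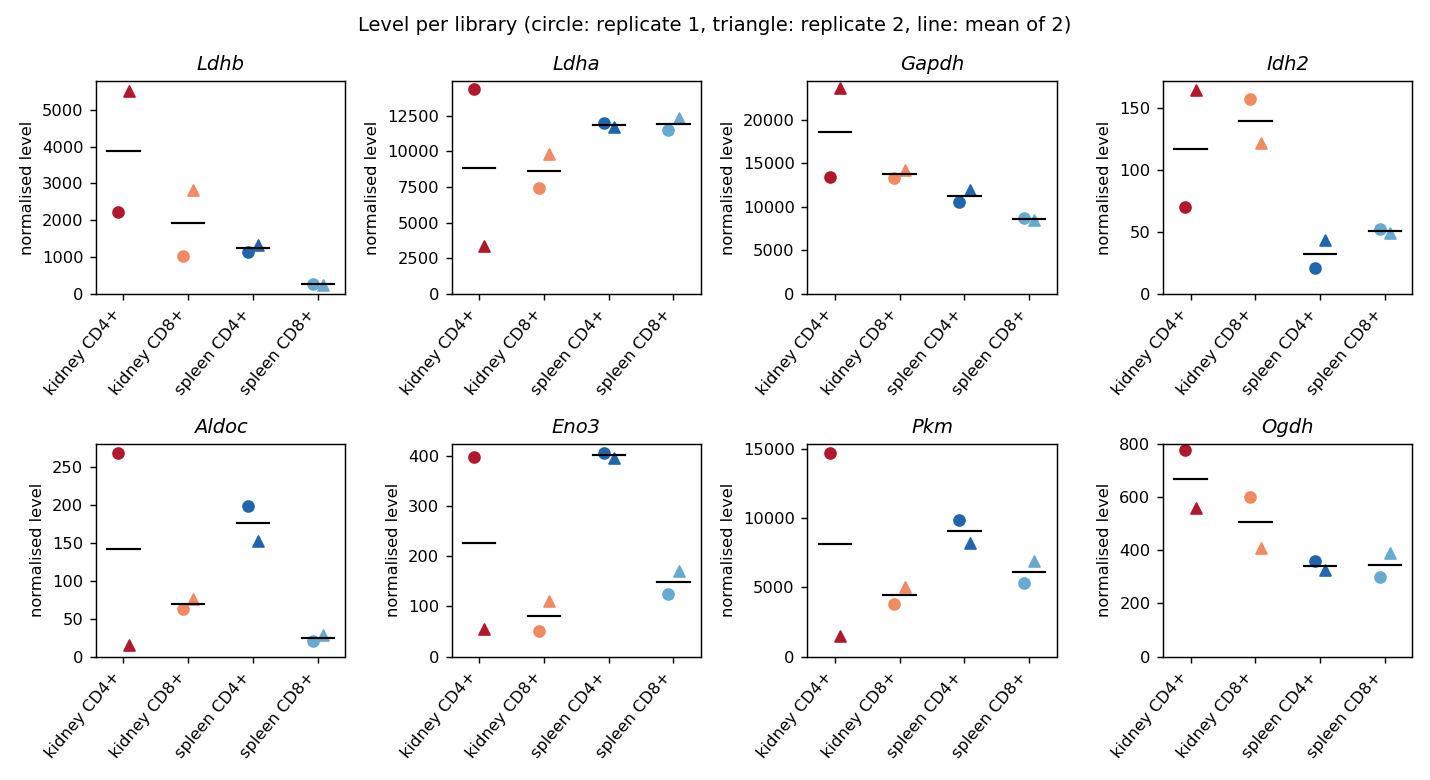
Normalised level (linear axis from 0) of 8 enzymes in each library, by group; circles are replicate 1, triangles replicate 2 and lines the mean of 2. Ldhb, Gapdh and Idh2 lie higher in kidney than in spleen within each cell type, Aldoc and Eno3 are higher in spleen CD4+ than in spleen CD8+ cells, and the 2 kidney CD4+ libraries lie far apart for Ldha and Pkm.

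**Figure D3:**
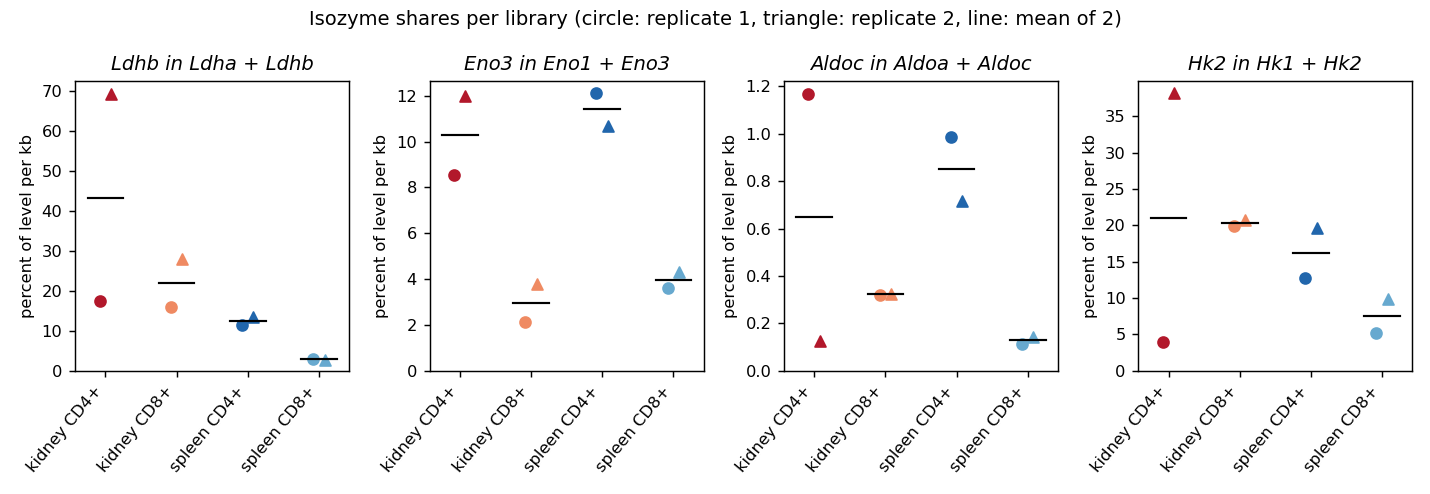
Share of 1 isozyme in the level per kb of its family (percent, axis from 0) in each library, by group; circles are replicate 1, triangles replicate 2 and lines the mean of 2. The Ldhb share is 2.95% and 2.67% in spleen CD8+ cells and reaches 69.1% in kidney CD4+ replicate 2, and the Eno3 share separates CD4+ from CD8+ cells in both organs.

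Gapdh was higher in kidney in all 4 kidney libraries. It had 13439 and 23716 in kidney CD4+, 13341 and 14232 in kidney CD8+, 10591 and 11977 in spleen CD4+ and 8737 and 8508 in spleen CD8+ cells. Within each kidney pair the library with more tubule RNA had more Gapdh, and the part of tubule RNA was not tested. The organs did not overlap, but the averaged log2 fold change of 0.67 ± 0.29 SE did not pass (adjusted p = 0.346, unadjusted 95% interval 0.0044 to 1.34). In CD8+ cells it was 0.68 ± 0.41 SE, adjusted p = 0.643, and it passed there without both kidney CD4+ libraries (adjusted p = 0.0238) and without kidney CD4+ replicate 1 or 2 (0.0236 and 0.0254). The averaged value also passed without replicate 1 or 2 of kidney CD4+ (adjusted p = 6.23e-04 and 0.0382). Gapdh has 44 near copies in the genome, so its level is uncertain. Smaller numbers of copies were found for Pgam1 and Eno1 (3 each), Pgk1 (2), and Tpi1, Pdhb and Suclg2 (1 each).

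In CD8+ cells several abundant glycolytic enzymes had lower levels in kidney, without passing the test. Of 17 glycolytic genes 7 were lower in both kidney CD8+ libraries than in both spleen CD8+ ones: Pfkl, Pfkp, Pgk1, Eno1, Eno3, Pkm and Ldha. Over all genes 24.4% were lower without overlap. In the other direction 5 glycolytic genes were higher without overlap (Hk1, Hk2, Aldoc, Gapdh and Ldhb), against 26.7% of all genes. None of the 41 enzymes passed the test in limma in this comparison, where 1.55% of all genes did. An unadjusted limma p under 0.05 was reached by 3 of the 41, against 1147 of all 10845 genes. With edgeR 0 were called (all genes 0.913%). Ldhb alone passed with DESeq2 (all genes 4.54%) and with library weights (all genes 5.32%). Gapdh and Ldhb passed with only the groups compared (all genes 5.34%), without both kidney CD4+ libraries (7.84%), and without kidney CD4+ replicate 1 (7.11%) or 2 (7.12%). The median log2 fold change of the 17 was -0.06, against 0.00 over all genes. Neutrophil markers summed to 3780.3 and 6736 in spleen CD8+ and 0 and 2.31 in kidney CD8+ libraries. Erythroid markers summed to 20909 and 13654 in spleen CD8+ and 735 and 1843 in kidney CD8+ libraries. The part of these cells in this comparison was not tested for any of the 41 enzymes.

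Pfkp, the platelet-type phosphofructokinase and the main form here, had 289 and 576 in kidney CD8+ and 789 and 1178 in spleen CD8+ cells (log2 fold change -1.24 ± 0.71 SE, adjusted p = 0.612). In CD4+ cells it had 1337 and 263 in kidney and 1035 and 727 in spleen. Both kidney CD8+ libraries lay below both spleen CD8+ libraries for this enzyme, without passing the test, while the kidney CD4+ libraries lay on both sides of spleen. Pfkl, the liver-type form, had 289 and 47.9, 62.0 and 95.6, 259 and 194 and 162 and 158 in kidney CD4+, kidney CD8+, spleen CD4+ and spleen CD8+ cells (averaged organ difference -0.98 ± 0.53 SE, adjusted p = 0.458). Pfkm had 36.7 and 22.9, 19.5 and 12.3, 30.5 and 11.2 and 6.73 and 18.1 in that order, close to the filter. Per kilobase, Pfkp supplied 74.9% to 85.4% of the phosphofructokinase level in all 8 libraries, with 80.7% and 85.4% in spleen CD8+ cells.

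Pkm, pyruvate kinase of the last glycolytic step, had 14743 and 1497 in kidney CD4+, 3807 and 5055 in kidney CD8+, 9900.0 and 8229 in spleen CD4+ and 5339 and 6915 in spleen CD8+ cells. The averaged organ difference was -0.71 ± 0.62 SE, adjusted p = 0.647, and it changed sign to 0.12 without kidney CD4+ replicate 2. The table gives 1 value for the gene, so the M1 and M2 splice forms were not told apart. Eno1, the general enolase, had 5536 and 523, 2992 and 3679, 3808 and 4296 and 4339 and 4925 in the same order (averaged organ difference -0.86 ± 0.63 SE, adjusted p = 0.582). Aldoa, the main aldolase here, showed no separation of the organs. It had 12609 and 7004, 10874 and 12929.9, 11122 and 11744 and 9831 and 11369 in that order. Hk1, the general hexokinase, had 138 and 59.3, 122 and 145, 121 and 98.3 and 92.9 and 82.1. Hk2, the inducible hexokinase, had 8.46 and 54.1, 45.0 and 56.3, 26.0 and 35.4 and 7.41 and 13.4. Both hexokinases were higher in kidney than in spleen CD8+ cells without overlap (Hk2 log2 fold change 2.22 ± 0.90 SE, adjusted p = 0.421). The Hk2 levels rest on 126 reads in kidney and 25 in spleen CD8+ cells, both libraries summed. The remaining glycolytic genes Gpi1, Tpi1, Pgk1 and Pgam1 had averaged organ differences of -0.55, 0.38, -0.48 and 0.12, with adjusted p from 0.632 to 0.877. Without kidney CD4+ replicate 2 Gpi1 became 0.12 and Pgk1 0.0075, and Pgam1 became -0.085 without replicate 1.

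In CD4+ cells the organ comparison rests on 2 unlike kidney libraries. Of the 41 enzymes 27 had a negative log2 fold change (65.9%, against 54.3% of all genes). Only 2 of them, Pgls and Rpe, were lower in both kidney libraries than in both spleen libraries (15.6% of all genes were). Higher without overlap were 8 (16.3% of all genes): Tpi1, Gapdh, Ldhb, Pgd, Taldo1, Idh2, Ogdh and Mdh1. In limma 0 of 41 passed (0.959% of all genes did), with 0 calls by edgeR (all genes 0.609%) or DESeq2 (3.25%). At an unadjusted limma p under 0.05 were 3 of the 41, against 988 of all 10845 genes. Without kidney CD4+ replicate 1, 24 of 41 passed, 4 higher (Gapdh, Ldhb, Idh2 and Mdh1) and 20 lower, where 22.2% of all genes passed, and without replicate 2, 0 passed (3.12% of all genes did). In these fits the lone kidney CD4+ library is assumed to vary like the other groups.

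Kidney CD4+ replicate 2 was the lowest of the 8 libraries for 20 of 35 well expressed enzymes (57.1%, against 35.8% of all well expressed genes). For 9 of these, Gpi1, Pgk1, Eno1, Pkm, Ldha, G6pdx, Idh3a, Sucla2 and Fh1, it was below 50% of the next lowest library (25.7%, against 15.1% of all). Eno1 was at 523 there and at 2992 or more in the other 7 libraries. Kidney CD4+ replicate 1 was the highest of 8 for 22 of 35 enzymes (62.9%, against 29.5% of all). These 2 libraries thus took the extremes for most of the enzymes. The difference between the 2 varied with transcript length. Replicate 2 was lower for 4 of 9 enzymes with transcripts under 1600 nt, for 12 of 13 from there to 2500 nt and for 13 of 13 longer ones. Over all well expressed genes the shares lower in replicate 2 were 31.0%, 78.9% and 70.8%. T cell genes differed in both directions between these replicates. Lck, the kinase of the T cell receptor, was at 24569 and 2813 in kidney CD4+ replicates 1 and 2 and Cd3e at 5456 and 637, while Cd3d was at 10077 and 26729 and Cd3g at 24538 and 48406. The 12 T cell genes summed to 104439.9 and 119214. The enzymes with short transcripts that were higher in replicate 2 were Ldhb (1304 nt), Gapdh (1420 nt), Idh3g (1331 nt), Suclg1 (1519 nt) and Taldo1 (1229 nt), and the part of transcript length in their levels was not tested.

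**Figure D4:**
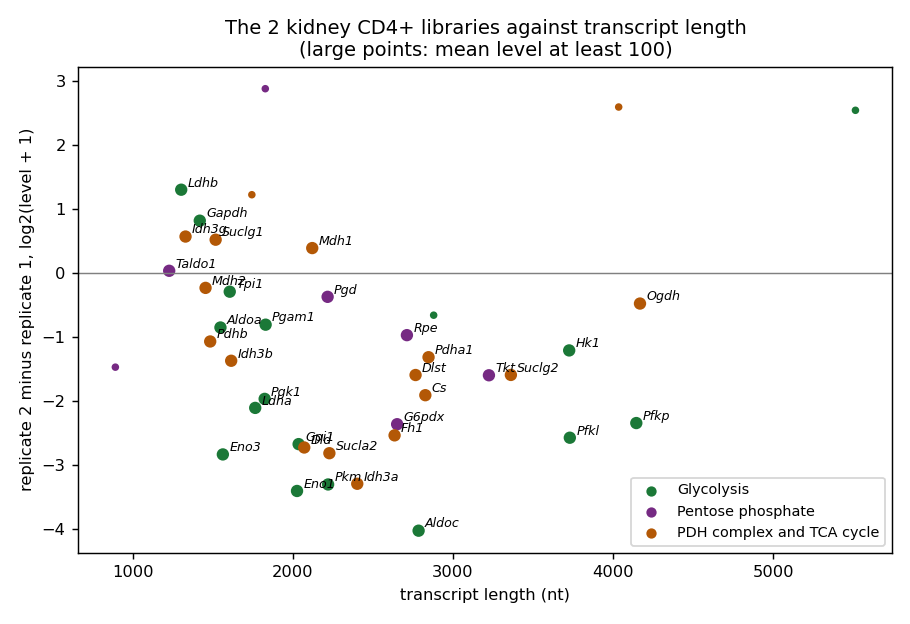
Difference between the 2 kidney CD4+ libraries (replicate 2 minus replicate 1, on the log2(level + 1) scale) against transcript length in nt for the 41 enzymes, coloured by pathway; large points have a mean level of at least 100. Enzymes with transcripts of 2500 nt and over all lie below 0 at that level (13 of 13), and Ldhb, the highest large point, is among the shortest.

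None of the 7 pentose phosphate genes passed in limma in any of the 6 comparisons. Averaged over the cell types 1 was higher (Taldo1) and 1 lower (Pgls) without overlap of the organs, against 5.84% and 3.6% of all genes. G6pdx, glucose-6-phosphate dehydrogenase of the entry step, had 362 and 69.7 in kidney CD4+, 267 and 171 in kidney CD8+, 368 and 293 in spleen CD4+ and 239.7 and 428 in spleen CD8+ cells (averaged organ difference -0.81 ± 0.51 SE, adjusted p = 0.521). Taldo1 had 3670.0 and 3766, 4034 and 3686, 2830.4 and 3502 and 2893 and 3239 in that order. It was higher in all 4 kidney libraries than in all 4 spleen libraries, by 0.29 ± 0.23 SE, adjusted p = 0.621. Pgls, the lactonase of the second step, was lower in all 4 kidney libraries, though at few reads: 19.0 and 6.24 in kidney CD4+ and 13.6 and 12.3 in kidney CD8+ against 21.1 and 19.8 and 23.6 and 25.8 in the spleen groups (-0.86 ± 0.55 SE, adjusted p = 0.530). In CD8+ cells alone the value was -0.88 ± 0.77 SE, adjusted p = 0.774. Rpe, which interconverts pentose phosphates, had 169.9 and 86.4 in kidney CD4+ and 365 and 234 in kidney CD8+ cells, the largest difference of the pathway between cell types in kidney (1.26 ± 0.46 SE, adjusted p = 0.488). In spleen it had 179.6 and 217 in CD4+ and 174 and 185 in CD8+ cells, which overlapped. Rpia, the isomerase that forms ribose 5-phosphate, had 5.64 and 47.9 in kidney CD4+, 46.7 and 13.9 in kidney CD8+, 43.8 and 37.1 in spleen CD4+ and 14.8 and 28.6 in spleen CD8+ cells, so that the 2 kidney CD4+ libraries spanned the range of the rest. Its organ difference in CD4+ cells was -1.20 ± 1.04 SE, adjusted p = 0.809, and the organ difference in CD8+ minus that in CD4+ cells 1.50 ± 1.47 SE, adjusted p = 0.999. Tkt (transketolase) and Pgd (the second NADPH-making dehydrogenase) had averaged organ differences of -0.46 and 0.17, which did not pass (adjusted p = 0.621 and 0.847). Pgd was higher in CD8+ than in CD4+ cells of spleen without overlap (1.07 ± 0.46 SE, adjusted p = 0.765).

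Among the pyruvate dehydrogenase and TCA genes, Idh2, Ogdh and Mdh1 were higher in all 4 kidney than in all 4 spleen libraries, without passing the test. They are 3 of 17 genes (17.6%), against 5.84% of all genes, and 0 were lower (3.6% of all genes). Idh2, the mitochondrial NADP-dependent isocitrate dehydrogenase, had 69.8 and 164 in kidney CD4+, 157 and 122 in kidney CD8+, 21.1 and 43.1 in spleen CD4+ and 52.5 and 48.7 in spleen CD8+ cells. The averaged organ difference was 1.61 ± 0.43 SE, adjusted p = 0.107, with 1.79 ± 0.60 SE, adjusted p = 0.336 in CD4+ and 1.43 ± 0.60 SE, adjusted p = 0.449 in CD8+ cells. Between CD8+ and CD4+ cells of spleen the value was 0.73 ± 0.60 SE, adjusted p = 1. DESeq2 called the averaged difference (adjusted p = 0.0164), as did limma without kidney CD4+ replicate 1 (0.00527). In kidney CD4+ cells the library with more tubule RNA had more Idh2, and in kidney CD8+ cells the library with less tubule RNA had more; the part of tubule RNA was not tested. Ogdh, the catalytic subunit of the oxoglutarate dehydrogenase complex, had 777 and 559, 602 and 410.1, 359 and 324 and 299 and 388 in the same order (0.75 ± 0.27 SE, adjusted p = 0.242). It passed without kidney CD4+ replicate 1 (adjusted p = 0.0470) or 2 (0.0338). Mdh1 had 7282 and 9555, 7037 and 9147, 5251 and 5332 and 5932 and 6461 (0.52 ± 0.25 SE, adjusted p = 0.414). Within each kidney pair the library with more tubule RNA had more Mdh1 and less Ogdh, and its part in these levels was not tested. Mdh2 had 8659 and 7385, 7646 and 8363, 6509 and 7761 and 7065 and 7882, with overlap between the organs.

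In CD8+ cells 6 of the 17 genes were lower in kidney without overlap, Pdha1, Pdhb, Cs, Idh3a, Idh3g and Suclg1, with log2 fold changes between -0.82 and -0.12 and adjusted p of 0.705 or more. That is 35.3%, against 24.4% of all genes, and 3 were higher (26.7% of all genes). These encode parts of the pyruvate dehydrogenase complex (Pdha1, Pdhb), of the NAD-dependent isocitrate dehydrogenase (Idh3a, Idh3g) and of the succinate-CoA ligase (Suclg1), and the citrate synthase that opens the cycle (Cs). Cs had 1585 and 422 in kidney CD4+, 619.6 and 788 in kidney CD8+, 1331 and 1063 in spleen CD4+ and 999 and 1533 in spleen CD8+ cells (averaged organ difference -0.68 ± 0.41 SE, adjusted p = 0.507). The subunits of a complex did not move together in every library. In kidney CD4+ replicates 1 and 2 Idh3a was at 1472 and 149.8 and Idh3b at 2193 and 849, while Idh3g went from 1414 to 2102. Their transcripts were 2403, 1616 and 1331 nt long in that order. The difference between these 2 libraries varied with transcript length over all well expressed genes, as given above. The part of length in the unlike subunit levels was not tested. In the 6 other libraries Idh3a was at 1049 to 1279.6, Idh3b at 1644 to 2030.5 and Idh3g at 1429 to 1946. The median log2 fold change of the 17 genes was -0.22 in CD8+ and -0.06 in CD4+ cells, against 0.00 and -0.08 over all genes. The remaining genes, Dlat, Dlst, Dld, Suclg2, Sucla2, Fh1 and Idh3b, had averaged organ differences from -0.46 to 0.11, and each of the 7 changed sign without kidney CD4+ replicate 1 (Dlat and Suclg2) or replicate 2 (the others).

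In the comparison of CD8+ with CD4+ cells of spleen no enzyme passed in limma (0.36% of all genes did). Of 17 glycolytic genes 9 were lower in CD8+ cells without overlap (Hk1, Hk2, Pfkl, Aldoc, Tpi1, Gapdh, Eno3, Pkm and Ldhb), 52.9% against 26% of all genes, and 2, Pgk1 and Eno1, were higher. Of 17 pyruvate dehydrogenase and TCA genes 0 were lower and 7 higher without overlap (Pdhb, Idh2, Idh3a, Idh3b, Suclg1, Suclg2 and Mdh1), 41.2% against 19.8% of all genes. The median log2 fold changes of these 2 pathways were -0.39 and 0.15, against -0.05 over all genes. Of 7 pentose phosphate genes 3 were higher (Pgls, Pgd and Tkt) and 1 lower (Rpia) without overlap, with a median of -0.04. Of the 41 enzymes 3 had an unadjusted limma p under 0.05, against 697 of all 10845 genes. DESeq2 called 1 enzyme (Ldhb, all genes 2.16%) and edgeR 0 (all genes 0.415%). With library weights, which lessen the part of the kidney CD4+ pair in the pooled error, Aldoc, Eno3 and Ldhb passed, where 6.14% of all genes did. The same 3 passed with only the groups compared (all genes 7.28%). Aldoc and Ldhb passed without both kidney CD4+ libraries (all genes 3.55%) and without kidney CD4+ replicate 1 (3.28%) or 2 (3.09%). Neutrophil markers summed to 5945 and 9789 in the spleen CD4+ and 3780.3 and 6736 in the spleen CD8+ libraries, with overlap. Macrophage and monocyte markers summed to 1719.7 and 2292 against 849.8 and 1461, and class II and dendritic cell markers (8 genes) to 5664 and 4636 against 2318 and 2852, both higher in CD4+ libraries without overlap. The part of these cells in the comparison was not tested.

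The enzymes called in these alternatives are isozymes best known from other tissues. Aldoc, the brain-type aldolase, had 199 and 153 in spleen CD4+ and 20.2 and 28.6 in spleen CD8+ cells, a log2 fold change of -2.81 ± 1.09 SE, adjusted p = 0.652 (adjusted p = 0.0108 without both kidney CD4+ libraries). Its levels in kidney were 269 and 15.6 in CD4+ and 62.8 and 75.5 in CD8+ cells. Eno3, the muscle-type enolase, had 406 and 396 in spleen CD4+ and 125 and 171 in spleen CD8+ cells (-1.45 ± 0.84 SE, adjusted p = 0.998; adjusted p = 0.0376 with library weights). In kidney it had 398 and 55.2 in CD4+ and 50.1 and 111 in CD8+ cells, lower than spleen in CD8+ cells (averaged organ difference -1.19 ± 0.59 SE, adjusted p = 0.418). As a share of the enolase level per kilobase Eno3 made up 12.1% and 10.7% in spleen CD4+ and 8.53% and 12.0% in kidney CD4+ cells, against 3.59% and 4.30% in spleen and 2.12% and 3.76% in kidney CD8+ cells. This share was higher in every CD4+ than in every CD8+ library of both organs, the unlike kidney CD4+ pair included. Aldoc was a small part of the aldolase level, 0.114% to 1.17% over the 8 libraries. Ldhb had a log2 fold change of -2.28 ± 0.56 SE, adjusted p = 0.219. Hk2, at 26.0 and 35.4 and 7.41 and 13.4 in spleen CD4+ and CD8+ cells, had few reads behind it.

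**Figure D5:**
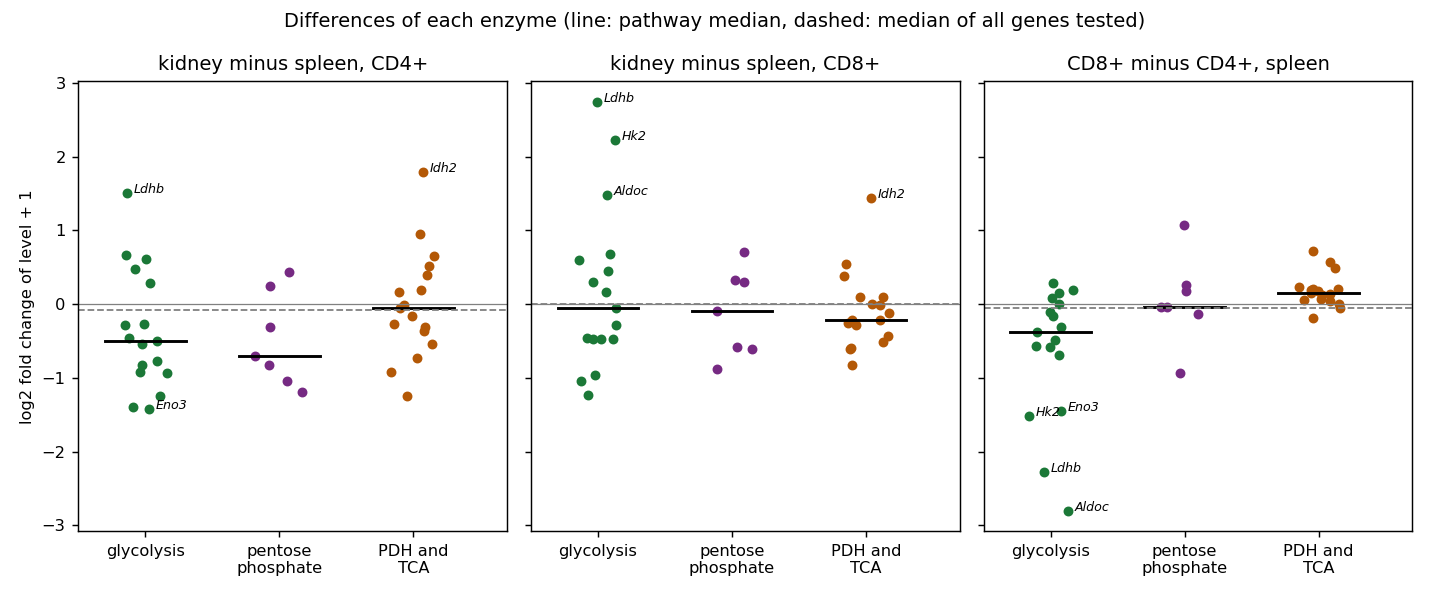
Log2 fold change of level + 1 (vertical axis) of each enzyme by pathway in 3 comparisons; black lines are pathway medians, the dashed line is the median of all genes tested, and points are spread sideways for visibility. In spleen the glycolytic median of CD8+ minus CD4+ cells is -0.39 and that of the pyruvate dehydrogenase and TCA genes 0.15, and Ldhb and Idh2 stand above their pathways in both organ comparisons.

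In kidney CD8+ against CD4+ cells 0 of 41 enzymes passed in limma (0.203% of all genes did). An unadjusted limma p under 0.05 was reached by 1 of the 41, against 923 of all 10845 genes. With edgeR and DESeq2 0 were called (all genes 0.221% and 1.99%). Without kidney CD4+ replicate 1, 14 passed (all genes 11.3%), 12 of them higher in CD8+ cells. Without replicate 2, 12 passed (all genes 13.2%), all 12 lower in CD8+ cells. Eno1, Gpi1, Ldha and Pkm passed in both fits, in opposite directions. The value for Idh3a, the largest of its pathway, was 1.27 ± 0.86 SE, adjusted p = 0.745 with both libraries, and 2.91 and -0.38 in these 2 fits. That for Hk2, the largest of glycolysis, was 1.17 ± 0.90 SE, adjusted p = 0.775, and -0.10 without replicate 1. Class II and dendritic cell markers (8 genes) summed to 14899 to 26403 in kidney CD4+ and 3655 to 5815 in kidney CD8+ libraries, and their part in this comparison was not tested. Outside the range of both kidney CD4+ libraries were Pgd and Rpe, higher in both CD8+ libraries (13.8% of all genes were), and Pfkm, lower (14.1%). For the difference of the organ effects between CD8+ and CD4+ cells 0 enzymes and 0% of all genes passed in limma. There 0 of 41 enzymes had an unadjusted limma p under 0.05, against 362 of all 10845 genes. With edgeR and DESeq2 0 enzymes were called (all genes 0% and 0.111%). Without kidney CD4+ replicate 1, 8 passed (all genes 7.3%). The largest value was that of Aldoc, 2.87 ± 1.54 SE, adjusted p = 0.999. Among the TCA genes it was that of Idh3a, 1.12 ± 1.21 SE, adjusted p = 0.999, which became -0.53 without kidney CD4+ replicate 2.

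Other genes of the pathways (isozymes, regulators, transporters, gluconeogenesis and glycogen enzymes and TCA-linked enzymes) numbered 93, of which 68 were tested. Averaged over the cell types 7 rose in kidney, 0 fell and 61 did not pass, where 3.37% of all genes passed in either direction. In CD4+ cells 4 rose and in CD8+ cells 5, and 0 fell in either (0.959% and 1.55% of all genes passed). Among those that rose were Fbp1, Pck1, Idh1, Me1, Tktl1 and Ldhd. Fbp1, fructose bisphosphatase of glucose synthesis, had 781 and 3666 in kidney CD4+ and 856 and 3571 in kidney CD8+ cells. Pck1, which makes phosphoenolpyruvate for the same route, had 511 and 2226 in kidney CD4+ and 244 and 2122 in kidney CD8+ cells, and both genes had 0 reads in spleen. Fbp1 and Pck1 are also on the tubule marker list, so their rise and that of tubule RNA are the same measurement. Idh1, the cytosolic isocitrate dehydrogenase, had 395 and 333 in kidney CD4+ and 209.7 and 577 in kidney CD8+ cells, against 53.2 and 18.1 in spleen CD4+ and 21.5 and 14.3 in spleen CD8+ cells (averaged log2 fold change 3.86 ± 0.48 SE, adjusted p = 0.00343). Me1, the cytosolic malic enzyme, had 39.5 and 85.3 in kidney CD4+ and 42.4 and 61.7 in kidney CD8+ cells, with 0 reads in spleen. All 4 kidney libraries were above all 4 spleen libraries for each of these 6 genes (5.84% of all genes were). The 6 were named because they passed in these same libraries, so this separation is no further support. Tktl1, a transketolase-like gene, had 104 and 119.7 in kidney CD4+ and 94.2 and 117 in kidney CD8+ cells, against 41 and 25 in spleen CD4+ and 0 and 10.5 in spleen CD8+ cells (adjusted p = 0.0476). Ldhd, the D-lactate dehydrogenase, had 31.7 and 54.1 in kidney CD4+ and 37.3 and 40.9 in kidney CD8+ cells, against 7.76 and 0 in spleen CD4+ and 0 and 2.86 in spleen CD8+ cells (adjusted p = 0.0396). The part of tubule RNA in these 4 was not tested.

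The glucose transporters and the pyruvate dehydrogenase kinase examined did not pass. Slc2a1, the glucose transporter GLUT1, had 249.5 and 51.0 in kidney CD4+, 39.9 and 82.5 in kidney CD8+, 108 and 95.8 in spleen CD4+ and 74.1 and 75.4 in spleen CD8+ cells. Slc2a3, GLUT3, had 352 and 152, 345 and 183, 161 and 227 and 142 and 163 in that order. Its averaged organ difference was 0.50 ± 0.37 SE (adjusted p = 0.595). Pdk1, a kinase that shuts off pyruvate dehydrogenase, was at 6.34 or less in the 4 kidney libraries, at 33.0 and 22.0 in spleen CD8+ cells and at 36 and 0.863 in spleen CD4+ cells (averaged log2 fold change -2.65 ± 1.11 SE, adjusted p = 0.324).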

How the data were processed

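Gene-level RNA sequencing values of 8 libraries were analysed (unused columns: 0). The authors deposited them as normalised signal. The genome was mm9, per the labels, and the submitters' processing notes list STAR 2.5.3 and TopHat2 2.1.0. The sources used here do not state the counting tool, annotation or size factors. The deposited signal values are whole multiples of 1 step per library in 100% of cases (tolerance 1e-06), so whole reads were recovered. They covered 7477544 to 11169003 reads per library.

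The main test was limma 3.58.1 in R 4.3.3, fitted to log2(level + 1) (cell means of 4 groups over 8 libraries, intensity trend, two-sided; 8.48 total degrees of freedom). It covered 10845 genes that reached a level of 10 in 2 or more libraries, with Benjamini-Hochberg adjustment over all of them in each of 6 comparisons; an adjusted p below 0.05 is a call. The log2(level + 1) scale understates changes of low genes. Alternatives were edgeR 4.0.16 and DESeq2 1.42.0 on recovered reads, other scalings, filters and pseudocounts, library weights, fewer groups, a replicate block and leaving out each library. The fit was tested on simulated reads in which all groups had the same spread. The unlike kidney CD4+ pair was not imitated there, so that test does not cover it. Lengths and positions are from GENCODE of the same mm9 build, taking the transcript with the longest coding sequence; near copies were found with minimap2 2.31.

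Enzymes and lists were chosen with earlier results of these data known. Genes given in full are called enzymes, the largest difference of each pathway and comparison, the isozyme pairs and Gapdh, Pkm, G6pdx and Cs; others were added after their values were seen. Some results are not reported here.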

Additional observations from a re-analysis of the deposited data

How the results depend on the processing

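Of 55 fold changes given for the enzymes, 39 kept their direction in every alternative run and 16 changed it in a fit without 1 kidney CD4+ library. Without kidney CD4+ replicate 2, with the value without replicate 1 in parentheses, their log2 fold changes were 0.28 (-1.83) for Ldha and -2.64 (0.24) for Rpia between organs in CD4+ cells, 0.12 (-1.53) for Pkm, 0.12 (-1.22) for Gpi1, 0.0075 (-0.97) for Pgk1, 0.32 (-0.085) for Pgam1, -0.97 (0.33) for Dlat, 0.29 (-1.07) for Dld, 0.38 (-0.42) for Dlst, 0.17 (-1.09) for Fh1, 0.20 (-0.48) for Idh3b, 0.26 (-1.14) for Sucla2 and 0.51 (-0.28) for Suclg2 between organs on average, -0.38 (2.91) for Idh3a and 2.44 (-0.10) for Hk2 between cell types in kidney, and -0.53 (2.76) for Idh3a in the difference of organ effects. The average for Dlst, near 0, also changed sign with edgeR (0.054) and DESeq2 (0.074) and without kidney CD8+ replicate 1, spleen CD4+ replicate 1 or spleen CD8+ replicate 2, that for Pgam1 without spleen CD4+ replicate 2, and that for Suclg2 without kidney CD8+ replicate 2. Counts of enzymes called also moved with the fit, and the cause was not tested. Between organs in CD8+ cells, where 168 of 10845 genes passed, 0 enzymes became 1 with DESeq2 (492 genes) and with library weights (577). The count was 2 with only the groups compared (520 of 9729 genes) and without both kidney CD4+ libraries (807 of 10292). Averaged over cell types, where 366 genes passed, 1 enzyme became 2 with DESeq2 (789 genes) and 0 without the intensity trend (375). Between cell types in spleen, where 39 genes passed, 0 enzymes became 1 with DESeq2 (234 genes) and 3 with library weights (666). The count was 3 with only the groups compared (702 of 9643 genes) and 2 without both kidney CD4+ libraries (365 of 10292). Leaving out 1 library at a time gave 0 to 24 calls between organs in CD4+ cells, 0 to 2 in CD8+ cells, 0 to 23 on average, 0 to 8 for the difference of organ effects, 0 to 14 between cell types in kidney and 0 to 2 in spleen. With 1 kidney CD4+ library left, it is assumed to vary like the other groups. The shares of all genes called moved in those fits as well, as given with the comparisons above. Replicate numbers share only a number in the labels, and same-numbered libraries of different groups deviated with correlations of -0.15 to 0.06 across genes. With the replicate block 1 enzyme, Ldhb, was called between organs in CD8+ cells in place of 0, and the other 5 counts did not change. Over all genes 137 passed there with the block, against 168 without it. TMM and median-of-ratios scaling changed no count. Fits of only the groups compared and without both kidney CD4+ libraries were run only for the comparisons whose groups they hold.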
